A study of Homo sapiens with 10 samples.

Results

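LINC genes are human genes that are named only as long intergenic noncoding RNA genes, with LINC and 5 digits as their symbol. Of 28265 gene symbols counted in NKX2-1 GFP+ cells sorted from human thyroid organoids, 1734 had such a name, and 210 of these were expressed by the rule used here: at least 3 CPM (the counts of a gene, scaled so that the counts of its library sum to 1e+06) in both libraries of at least 1 of 5 days. The other 1524 LINC genes did not meet the rule, and 538 of them had 0 counts in every library. Since measured levels chose the 210 genes, the fact that they are expressed, and on which days they met the rule, is a description and carries no test.

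The cells came from the human ESC line ESIBIe003-A-6, in which one NKX2-1 allele carries GFP and lentiviral NKX2-1 and PAX8 can be switched on by doxycycline, in selected clones. NKX2-1 and PAX8 are transcription factors of the thyroid lineage. All organoids were treated with Activin A and then with doxycycline, and GFP+ cells were sorted in 2 biological replicates on each of days 16, 23, 31, 38 and 45, each pooled from wells. The sample titles name c-AMP for days 16, 23 and 31, TSH and DEX for day 38, and TSH and SB for day 45. By the study's text, the cells were in basal medium in the week before day 16, although the titles name c-AMP for that day. From day 16, 8-br-cAMP, a cell-permeable cAMP analogue, was given. Recombinant TSH with dexamethasone, a glucocorticoid, came next, and SB431542, an inhibitor of TGFβ receptor kinases, was added last. That text places the switch to TSH and dexamethasone shortly before day 31. It places the addition of SB431542 shortly before day 38 in one passage and on day 38 in another. The titles name c-AMP for day 31 and no SB for day 38, so the medium of these libraries at sorting is not certain. Medium therefore changed together with time, and the effects of both cannot be told apart in these 10 libraries. The samples kept on cAMP alone until days 38 and 45 were not analysed here.

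Long intergenic noncoding RNAs are transcribed and spliced much like mRNAs but encode no known protein. Most are present at low levels and in few cell types, and many lie near genes of developmental transcription factors. A few act on the gene next to them or in the nucleus at a distance, while for most of the LINC genes below no function is established.

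The libraries held 7247268 to 10333933 counts, so that 3 CPM stood for 21.7 to 31 counts and the limit that a count of 0 allows (3 counts) for 0.290 to 0.414 CPM. These limits cover counting error only. NKX2-1 stood between 55.2 and 167 CPM and PAX8 between 448 and 760 CPM in every library. Thyroglobulin (TG), the thyroid hormone precursor, went from 11.1 and 11.6 CPM on day 16 to 7569 and 7183 CPM on day 45. Markers of other cells were also counted. POU5F1, which defines pluripotent cells, reached at most 0.12 CPM, but DPPA4 of the same list was at 99.4 to 147 CPM up to day 31 and LIN28A at 41.6 and 26.4 CPM on day 16. Of the distal lung markers, SFTPC reached at most 0.10 CPM, while SFTPB was at 173 and 156 CPM on day 23, at 535 CPM in both libraries of day 31 and at 1.47 to 47.9 CPM on the other days. Of the endothelial markers, PECAM1 reached 1.46 CPM and CDH5 5.15 CPM. The fibroblast markers did not move together. COL1A2, a collagen gene, was at 165 to 281 CPM up to day 31 and at 843 to 1095 CPM on days 38 and 45, DCN was highest on day 45 (138 and 110 CPM), and PRRX1 was highest on day 16 (34.3 and 45.1 CPM) and at 6.91 to 8.97 CPM on days 38 and 45.

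The rule drew a line through a continuous range of levels. The lower library of the best day stood at 2.90 CPM for LINC00346, 2.92 CPM for LINC02482 and 2.93 CPM for LINC02367, which were left out, and at 3.01 CPM for LINC01132 and LINC01361 and 3.05 CPM for LINC02556, which were kept. On this measure 25 genes fell between 2.5 and 3 CPM and 18 between 3 and 3.5 CPM. At 5 CPM the rule would keep 138 genes. The kept genes were mostly low: their mean over the 10 libraries had a median of 4.72 CPM, with quartiles at 2.93 and 12.0 CPM and a range from 0.930 to 236 CPM, and 7 of 210 were over 50 CPM.

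Expressed LINC genes were about as numerous on each day but were partly other genes. The rule was met by 131 genes on day 16, 121 on day 23, 125 on day 31, 124 on day 38 and 116 on day 45. It was met on all 5 days by 64 genes and on 1 day only by 62, of which 22 belonged to day 16, 6 to day 23, 10 to day 31, 9 to day 38 and 15 to day 45. Another 12 genes met it on days 23 and 31 only, both titled c-AMP, 7 on days 38 and 45 only, and 6 on days 16 and 38 only. The highest mean level fell on day 16 for 62 genes and on day 45 for 39, while the lowest fell on day 45 for 74 and on day 38 for 51.

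**Figure D1:**
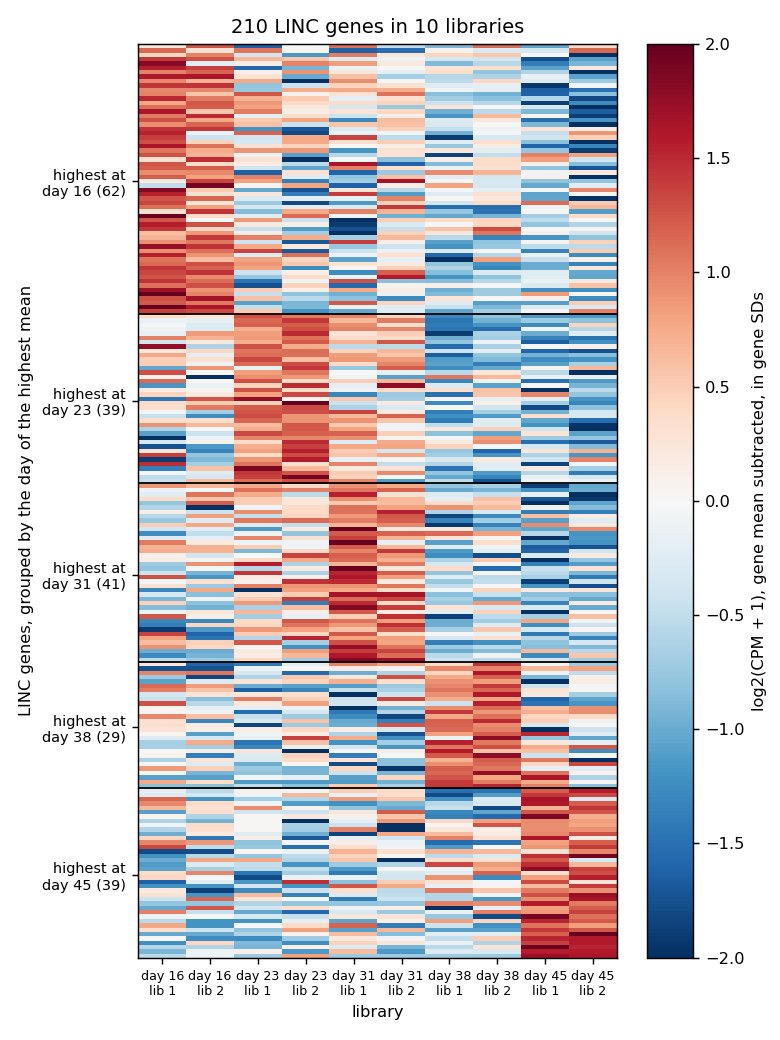
Level of the 210 LINC genes (rows) in the 10 libraries (columns, 2 for each day), as log2(CPM + 1) minus the gene's mean, in units of the gene's SD over the 10 libraries, red for above and blue for below the mean, on a scale that ends at 2 SDs. Genes are grouped by the day of their highest mean, so the red block on each day follows from the ordering, and the numbers in brackets (62, 39, 41, 29 and 39) count the genes of each group.

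The summed level of the 1734 LINC genes was lower on the last days, and a few genes carried much of it. It was 3357 and 3020 CPM on day 16, 3374 and 3383 CPM on day 23, 3368 and 3337 CPM on day 31, 2196 and 2486 CPM on day 38, and 2687 and 2769 CPM on day 45. No library of days 38 and 45 reached the lowest library of days 16 to 31. The 7 genes whose day means were lower on day 38 than on day 31 by the most CPM (LINC01000, LINC00674, LINC00641, LINC00472, LINC01128, LINC01004 and LINC01089, picked after their values were seen) summed to 1069 CPM on day 31 and 485 CPM on day 38, which is 57.8% of the difference of the sum. Of the stretches of LINC01000, 59.1% are repeated in the genome, and of those of LINC01128 43.3%. Without the 7 genes the sum was 2186 to 2549 CPM up to day 31 and 1744 to 1969 CPM after it. RN7SK, a small nuclear RNA with 2.92 to 8.17% of all counts in a library, weighs on this scale. With RN7SK left out of the totals, the sums were 3251 to 3603 CPM up to day 31 and 2392 to 2919 CPM after it, and with TMM factors, edgeR's scaling for composition, 3044 to 3220 against 2450 to 2900 CPM, so that the days did not overlap on either scale. In bulk samples, fewer cells of a type and less RNA per cell cannot be told apart. The summed levels of the marker lists moved over the same days. The sum of the thyroid list (8 genes, all found) stood at 1445 to 1936 CPM up to day 31 and at 6209 to 8850 CPM on days 38 and 45, where most of it was TG. Other members had other courses. FOXE1 was at 937 and 625 CPM on day 16 and at 194 and 208 CPM on day 45. HHEX was at 100 and 132 CPM on day 16, 406 and 354 CPM on day 31, and 142 and 155 CPM on day 45. The sum of the fibroblast list (3 genes), most of it COL1A2, stood at 214 to 336 CPM and then at 960 to 1155 CPM, with PRRX1 highest on day 16. The pluripotency list (5 genes, DPPA4 the most abundant, POU5F1 at or near 0) stood at 118 to 199 CPM up to day 31 and at 11 to 39.8 CPM after it. Within it, LIN28A was already at 1.16 and 1.20 CPM on day 23, and SOX2 was highest on day 38, at 21.5 and 20.1 CPM. Their part in the LINC levels was not tested.

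LINC00473 is a primate gene known as a target of cAMP and CREB signalling, and of the LINC genes named here it had the largest fitted log2 fold change. It had no count in either library of day 16. It stood at 9.87 and 12.1 CPM (85 and 101 counts) on day 23, at 15.3 and 13.9 CPM on day 31, at 53.2 and 53.9 CPM (550 and 492 counts) on day 38, and at 33.8 and 42.3 CPM on day 45. Both libraries of day 38 lay above those of all other days. Against the limit that 3 counts in each library of day 16 allow, the mean of day 23 was at least 28.8-fold higher and that of day 45 at least 99.7-fold higher. Between days 31 and 38 it rose by 2.09 on the log2 scale (SE 0.29, edgeR adjusted p = 1.51e-06), with no overlap between the days. The step from day 23 to day 31 was 0.39 (SE 0.30, adjusted p = 0.669) and that from day 38 to day 45 was -0.54 (SE 0.28, adjusted p = 0.239), and neither passed the threshold of 0.05.

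RefSeq places LINC00473 on the minus strand at chr6:165924048-165988039 (GRCh38.p14). In GENCODE 44 this stretch lies inside PDE10A (chr6:165327287-165988117, minus strand), which encodes a phosphodiesterase that breaks down cAMP and cGMP, and LINC00473 has no entry of its own there. The deposited table counted both under separate symbols, but reads from exons that they share cannot be divided with certainty. PDE10A did not have the same course. It stood at 46.0 and 44.9 CPM on day 16, where LINC00473 had 0 counts, at 27.6 and 24.4 CPM on day 23, 36.5 and 26.5 CPM on day 31, 140 and 179 CPM on day 38, and 125 CPM in each library of day 45. It fell by 0.85 on the log2 scale between days 16 and 23 (edgeR adjusted p = 0.00181) and rose by 2.55 between days 31 and 38 (adjusted p = 1.07e-12). Its low days were thus days 23 and 31, and its high days were shared with LINC00473.

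The promoter of LINC00473 is shown because CREB is known to bind the cAMP response element (CRE), TGACGTCA, or its shorter form TGACG. The window runs from 250 bases before to 50 bases after the RefSeq start at chr6:165987990-165988289 (GRCh38.p14, minus strand), written 5′ to 3′, with the letters TGACG or, for the other strand, CGTCA in capitals.
LINC00473: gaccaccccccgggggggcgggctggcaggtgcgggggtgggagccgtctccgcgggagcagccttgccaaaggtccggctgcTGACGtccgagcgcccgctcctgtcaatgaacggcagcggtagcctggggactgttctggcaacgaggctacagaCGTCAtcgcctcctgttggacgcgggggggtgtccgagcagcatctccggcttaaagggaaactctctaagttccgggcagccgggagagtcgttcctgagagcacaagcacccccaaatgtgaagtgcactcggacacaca
The short form begins at -167 and at -92 from the start, and the full CRE is not in this window. The short form was searched after the values of the gene were known. It is held by 24.6% of 35116 RefSeq promoters of this length on either strand, and by 40 of the 167 LINC promoters matched, so a match alone sets no gene apart.

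Across the 14755 genes with at least 5 CPM in 1 day mean, DIO2 had the course most like that of LINC00473 over the 10 libraries, with Pearson r = 0.993 of log2 CPM. DIO2 encodes the type 2 deiodinase, which converts T4 to T3. Its day means were 45.8, 246, 245, 697 and 618 CPM. NFIA, a transcription factor, followed with r = 0.991, CANX, an endoplasmic reticulum chaperone, with r = 0.989, CTSB, a lysosomal protease, with r = 0.988, and CNTN5, a cell adhesion protein, with r = 0.987. These 5 genes were lowest on day 16 and highest on day 38. The 10 points share 5 days and their media, so the coefficients describe the order of the days.

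The full CRE was found in 4 of the 167 promoter windows of the 145 LINC genes matched, each window of another gene (2.40% of windows, against 1.85% of all 35116 promoters). They are shown with 11 bases on each side, 5′ to 3′ in the direction of the gene, with the CRE in capitals, at chr6:135497758-135497787 (plus), chr7:39733359-39733388 (plus), chrX:102769115-102769144 (plus) and chrX:103554969-103554998 (minus), GRCh38.p14.
LINC00271: gcgccgcctgcTGACGTCAgcgcctgccta
LINC00265: cccagctaccgTGACGTCAcgagacccccg
LINC00630: ccatagtaaccTGACGTCAtattagcgacg
LINC02589: ccatagtaaccTGACGTCAttttggcgact
The windows of LINC00630 and LINC02589, both on the X chromosome, begin with the same 20 letters. The 4 genes did not share one course over the days. LINC00271 was at 0.73 to 3.62 CPM up to day 31 and at 4.06 to 5.24 CPM after it, and LINC00630 at 2.64 to 5.83 CPM and then 5.32 to 8.69 CPM. LINC00265 was highest on day 31, with 19.5 and 23.1 CPM, and lowest on day 45, with 7.04 and 7.09 CPM. LINC02589 went from 9.27 and 6.96 CPM on day 16 to 1.52 and 0.10 CPM on day 45. The palindromic glucocorticoid response element was in none of the 167 promoters and in 0.003% of all. The letters CTCAAG, the core bound by NKX2 factors, were in 23 of 167 (13.8%, against 12.4% of all).

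LINC00261 lies beside FOXA2, a transcription factor of endoderm, and is known from endoderm differentiation. GENCODE 44 places it on the minus strand at chr20:22547663-22578642, with its start 6813 bases from that of FOXA2 and 0 bases of its exons shared with another gene. It stood at 2.65 and 5.50 CPM on day 16, 7.90 and 4.21 CPM on day 23, 23.7 and 22.8 CPM on day 31, 22.0 and 17.1 CPM on day 38, and 5.11 and 2.81 CPM on day 45. The 4 libraries of days 31 and 38 lay above the other 6. The rise between days 23 and 31 was 1.91 on the log2 scale (SE 0.46, edgeR adjusted p = 0.0143). The call did not hold without replicate 2 of day 23 (adjusted p = 0.263) or without either library of day 31 (0.0794 and 0.132). FOXA2 stood at 1.59 and 2.69 CPM on day 16, 3.37 and 3.25 CPM on day 23, 24.1 and 14.5 CPM on day 31, 13.2 and 9.98 CPM on day 38, and 3.17 and 4.48 CPM on day 45. It rose by 2.52 between days 23 and 31 (adjusted p = 0.00431) and fell by 1.64 between days 38 and 45 (adjusted p = 0.0331). The r of the pair over the 10 libraries was 0.917. The distal lung list (3 genes, SFTPB the most abundant, SFTPC at 0 to 0.10 CPM) was also high on day 31, at 543 and 540 CPM against 7.64 to 49.0 CPM on days 38 and 45 and 1.95 to 176 CPM before. The liver list (3 genes, AFP the most abundant on day 31) was at 4.37 to 18.3 CPM up to day 23 and at 107 and 86.7 CPM on day 31. It was at 91.6 and 57.7 CPM on day 38 and at 208 and 189 CPM on day 45. On day 45 ALB was at 113 and 91.4 CPM and AFP at 92.2 and 93.5 CPM. APOA1 had another course, highest on day 31 (4.93 and 10.5 CPM). It was at 1.26 and 0.99 CPM on day 38 and at 2.21 and 3.86 CPM on day 45. The part of both lists in these levels was not tested.

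The promoter of LINC00261 is shown because FOXA2 binds forkhead motifs. The window is chr20:22578593-22578892 (GRCh38.p14, minus strand), with the letters TGTTTAC, here on the other strand as GTAAACA, in capitals.
LINC00261: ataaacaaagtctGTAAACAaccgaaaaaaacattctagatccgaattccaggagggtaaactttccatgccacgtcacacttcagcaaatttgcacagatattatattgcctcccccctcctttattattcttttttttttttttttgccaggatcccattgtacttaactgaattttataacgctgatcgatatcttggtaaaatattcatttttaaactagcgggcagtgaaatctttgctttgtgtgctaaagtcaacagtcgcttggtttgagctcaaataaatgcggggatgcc
The match begins at -237 from the start. These letters were in 6 of the 167 promoter windows of LINC genes (3.59%) and in 3.42% of all promoters.

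LINC02649 and LINC02656 were high on days 16 and 38 and low on the days between. LINC02649 (chr10:6271169-6353827, plus strand) stood at 35.0 and 24.8 CPM on day 16, at 2.09 and 1.80 CPM on day 23, 1.75 and 3.22 CPM on day 31, 29.1 and 47.6 CPM on day 38, and 4.97 and 8.44 CPM on day 45. LINC02656 (chr10:6350316-6352762, plus strand) stood at 29.9 and 17.0 CPM, 0.35 and 0.96 CPM, 4.28 and 3.35 CPM, 31.7 and 34.9 CPM, and 11.5 and 8.44 CPM on the same days. For both genes the libraries of days 16 and 38 lay above all others. LINC02656 (2447 bases) lies within the span of LINC02649 on the same strand, so some reads may be common to them, and their r was 0.918. Between days on which the gene met the rule, LINC02656 rose by 3.34 on the log2 scale from day 31 to day 38 (SE 0.42, edgeR adjusted p = 1.82e-07) and fell by 1.80 to day 45 (SE 0.38, adjusted p = 0.00115), and LINC02649 fell by 2.55 from day 38 to day 45 (SE 0.39, adjusted p = 9.71e-06). The nearest coding gene is PFKFB3, which makes a regulator of glycolysis, with its start 126235 bases from that of LINC02649. PFKFB3 had day means of 119, 42.2, 62.7, 164 and 58.7 CPM and passed the test between days 16 and 23 (log2 fold change -1.53, adjusted p = 9.47e-07), between days 31 and 38 (1.60, adjusted p = 1.41e-07) and between days 38 and 45 (-1.53, adjusted p = 6.63e-07). Its r was 0.927 with LINC02649 and 0.884 with LINC02656.

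LINC01237 (chr2:241881363-242078722) was likewise low on days 23 and 31, but its day 45 libraries overlapped those of day 16. It had 19 and 14 counts on day 16, 0, 0, 0 and 1 on days 23 and 31, 45 and 29 on day 38, and 18 and 11 on day 45. The libraries of days 16, 38 and 45 lay above those of days 23 and 31. LINC00662, a gene studied in cancer, was higher on day 38 as well, with 15.4 and 22.3 CPM against 2.52 to 11.3 CPM in all other libraries.

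LINC02006 and LINC02877, among the 12 genes that met the rule on days 23 and 31 only, had the opposite course. Not every gene of this group stood apart on these days. LINC01590 was at 3.37 to 6.14 CPM on them and at 4.06 CPM in a library of day 38. LINC02006 (chr3:153384934-153980186, minus strand) stood at 2.25 and 4.89 CPM on day 16, 25.7 and 28.1 CPM on day 23, 24.9 and 30.5 CPM on day 31, 0.68 and 2.52 CPM on day 38, and 1.24 and 4.80 CPM on day 45. LINC02877 lies within its span on the other strand (chr3:153431856-153502697) and had 0.13 and 1.71 CPM, 3.95 and 11.2 CPM, 8.22 and 10.5 CPM, 0.48 and 0 CPM, and 0.41 and 0 CPM. Neither gene overlapped between days 23 to 31 and the other days, and their r was 0.903. Both were picked after their values were seen. RAP2B, a small GTPase and the nearest coding gene of LINC02877, had day means of 38.9, 112, 122, 48.2 and 61.6 CPM, with r = 0.808 to LINC02877. ARHGEF26, the nearest coding gene of LINC02006, had day means of 31.1, 28.3, 36.9, 28.1 and 30.6 CPM, with r = 0.326 to LINC02006, and was called in no comparison. LINC01619, whose exons overlap BTG1 by 10.2%, had 0 counts in both libraries of day 16 and 3.25 to 7.81 CPM on days 23 and 31, at least 14.5-fold above the day 16 limit on day 23. It stood at 0.29 and 0.66 CPM on day 38 and at 4.97 and 1.88 CPM on day 45.

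LINC02475 (chr4:44016700-44022063, plus strand) was the highest of the 10 genes that met the rule on day 31 only. It had 139 and 122 counts on day 31 (15.2 and 15.1 CPM), 22 and 29 counts on day 23, and 0 to 6 counts in the other 6 libraries. LINC01483 was also highest on day 31, with 5.59 and 5.33 CPM, after 0 counts on day 16, and had 0 and 1 count on day 38. LINC00316 was the highest of the genes of day 23 only, with 5.69 and 9.74 CPM, but one library of day 45 reached 6.25 CPM. LINC01588 had 0 counts on day 16, 8.55 and 5.21 CPM on day 31 and 4.42 and 10.0 CPM on day 45. Its day 45 mean was at least 18.9-fold over the limit of day 16. The distal lung list named above was highest on the same day 31 as LINC02475.

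Some genes were higher on day 38 or day 45 than on day 16. LINC01886 (chr2:107529292-107556499) had 2 counts in all over the 6 libraries of days 16 to 31 and 59, 48, 80 and 57 counts in those of days 38 and 45, at least 15.7-fold above the day 31 limit on day 38. LINC00158 (chr21:25385388-25431701) was at 5.32 and 9.98 CPM on day 38, 4.97 and 1.46 CPM on day 45, and at most 1.19 CPM before. LINC00609 was the highest gene of day 38 only, with 6.68 and 11 CPM, and had 0 to 3.25 CPM in the other libraries. On day 45, LINC01854 was the highest of the genes of that day only, with 13.9 and 9.69 CPM against 0.44 to 5.37 CPM elsewhere. LINC02150 stood at 4.97 and 4.27 CPM and LINC00628 at 3.86 and 3.54 CPM on day 45, and both had 0 counts in the libraries of day 38. LINC02150 also had counts on days 16, 23 and 31. LINC02036 had 0 counts on day 16 only and lay between 3.01 and 8.96 CPM in all 8 later libraries. The sum of the fibroblast list, given above and most of it COL1A2, was high on the same days 38 and 45 while PRRX1 was highest on day 16, and the part of these genes was not tested.

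Other genes were lower with time. LINC02249 (chr15:30195809-30217552, plus strand) went from 76.4 and 64.6 CPM on day 16 to 32.2 and 27.5 CPM on day 23, 10.7 and 13 CPM on day 31, 9.68 and 9.32 CPM on day 38, and 1.10 and 3.65 CPM on day 45. The days did not overlap. It fell by 1.28 on the log2 scale to day 23 (SE 0.31, edgeR adjusted p = 0.00398), a call lost without replicate 2 of day 23 (adjusted p = 0.0724), and by 1.36 from day 23 to day 31 (SE 0.32, adjusted p = 0.0125), a call lost without replicate 1 of day 23 (0.127) or either library of day 31 (0.237 and 0.0653). Of its 50-base exon stretches, 85.9% occur more than once in the primary GRCh38 assembly, so its counts may come in part from copies. LINC00869 went from 18.0 and 10.6 CPM on day 16 to 0 and 0.31 CPM on day 45, and LINC01145, picked after its values were seen, from 55.8 and 32.6 CPM to 4.42 and 0.31 CPM. RefSeq places them on chromosome 1 at 149607012-149679523 and 145164099-145216052, and 76.2% and 88.0% of the stretches of these spans are repeated, so their values are uncertain in the same way. LINC01138 on the same chromosome (31.4% of its exon stretches repeated) went from 5.03 and 5.62 CPM to 0.28 and 0 CPM. LINC01208 (1.08% repeated) went from 6.75 and 3.42 CPM on day 16 to 0 counts in both libraries of day 45, at least 14.0-fold lower. LINC00908 was highest on day 38, at 9.87 and 8.99 CPM, and stood at 0 and 2.92 CPM on day 45. LINC01979 had no steady course, with 7.02 and 5.37 CPM on day 16, 1.51 and 1.80 CPM on day 23, 1.64 and 9.18 CPM on day 31, 0 counts in both libraries of day 38 and 2.07 and 4.69 CPM on day 45. LINC01981, the highest gene of day 16 only, stood at 8.87 and 6.47 CPM there, but single libraries of days 23 and 31 reached 7.55 and 5.46 CPM.

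Among the genes expressed on all days, LINC00641 and LINC01004 fell on day 38 and rose on day 45. LINC00641 (chr14:21200079-21206900, minus strand) stood at 175 and 151 CPM on day 16, 193 and 183 CPM on day 23, 228 and 218 CPM on day 31, 104 CPM in both libraries of day 38, and 304 and 349 CPM on day 45. It fell by 0.88 on the log2 scale between days 31 and 38 (SE 0.13, edgeR adjusted p = 7.14e-06) and rose by 1.60 between days 38 and 45 (SE 0.14, adjusted p = 1.11e-10). LINC01004 (chr7:104950315-105013068, minus strand) stood at 57.5 and 54.2 CPM on day 16, 64.1 and 103 CPM on day 23, 60.6 and 85.2 CPM on day 31, 21.0 and 32.8 CPM on day 38, and 168 and 158 CPM on day 45. It fell by 1.23 (SE 0.21, adjusted p = 5.11e-05) and then rose by 2.56 (SE 0.22, adjusted p = 1.09e-10). In both genes the libraries of day 38 were the lowest of all and those of day 45 the highest. Per length of merged exons, LINC00641 had the highest mean level over the 10 libraries of the 188 genes annotated as lncRNA, with 35.2 CPM per kb, before LINC02315 with 32.7 and LINC01004 with 20.3 CPM per kb.

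LINC00674, LINC01000 and LINC00472 were lower on day 38 than on day 31. LINC01000 stood at 172 and 169 CPM on day 16, 293 and 327 CPM on day 23, 237 and 277 CPM on day 31, 97.9 and 122 CPM on day 38, and 134 and 129 CPM on day 45. It rose by 0.82 on the log2 scale between days 16 and 23 (SE 0.14, edgeR adjusted p = 6.48e-05) and fell by 1.01 between days 31 and 38 (SE 0.14, adjusted p = 1.10e-06), but 59.1% of the stretches of its RefSeq span are repeated in the genome. LINC00674, the member with the highest mean (236 CPM), was at 247 to 344 CPM up to day 31 and at 148 to 173 CPM after it, and fell by 0.61 between days 31 and 38 (SE 0.13, adjusted p = 0.000909), a call lost without replicate 1 of day 31 (0.0533). GENCODE 44 gives LINC00674 only a pseudogene model of 160 bases, 97.5% of which overlaps another gene, so that no level per length is given. LINC00472, known for its low expression in breast tumours, rose by 0.77 between days 16 and 23 (SE 0.21, adjusted p = 0.0101) and fell by 0.95 between days 31 and 38 (SE 0.21, adjusted p = 0.00105). The first call was lost without replicate 2 of day 16 or either library of day 23 (0.0551 to 0.0710) and the second without replicate 1 of day 31 (0.0659). Its libraries of day 45, at 48.0 and 96.8 CPM, lay far apart. LINC02315 fell from 57.6 and 48.4 CPM on day 16 to 15.3 and 14.3 CPM on day 45, by 1.74 (SE 0.24, adjusted p = 6.81e-07). LINC01278 dipped on day 31, with 28.1 and 28.8 CPM against 39.7 to 59.9 CPM on all other days. It fell by 0.88 from day 23 (SE 0.23, adjusted p = 0.0312), a call lost without replicate 1 of day 23 (0.374) or either library of day 31 (0.273 and 0.147), and with the fit of only the 4 libraries compared (0.0744).

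LINC01578, LINC00342 and LINC02575 had the smallest ratio of the highest to the lowest day mean among the 64 genes of all 5 days. LINC01578 is known today as CHASERR, a gene beside CHD2 that acts on CHD2, and 7.27% of its exons overlap other genes. It lay between 73.4 and 110 CPM in all libraries, with a ratio of 1.23. LINC00342 lay between 18.3 and 25 CPM (ratio 1.17, 25.8% of its stretches repeated) and LINC02575 between 7.59 and 10.2 CPM (ratio 1.21). No day stood apart in these genes (edgeR adjusted p over all days 0.368, 0.885 and 0.969). LINC00467, a gene studied in cancer, lay between 3.51 and 10.1 CPM (adjusted p over all days 0.879). These ratios chose the first 3 genes, and a p that misses the threshold does not show that their levels were equal.

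Over all 5 days, 90 of the 210 LINC genes passed the threshold of 0.05 (42.9%), against a background of 36.3% of the 21014 genes tested. The fit left 5 residual degrees of freedom, and edgeR drew the spread of each gene toward that of all genes. The p-values set a difference against this spread between libraries. Between days 16 and 23, 27 LINC genes were called, 17 higher and 10 lower (12.9%), against 10.9% of all genes, 5.60% higher and 5.33% lower. Without replicate 2 of day 23 the count was 9. Between days 23 and 31, both labelled c-AMP, 4 were called, 2 in each direction (1.9%), against 2.25% of all genes, 1.58% higher and 0.666% lower. Without replicate 1 of day 31 the edgeR count was 0, with 16 genes at an unadjusted p under 0.05, and without replicate 2 it was 1. DESeq2 on all libraries called 5. These shares were near those of all genes.

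Between day 31, titled c-AMP, and day 38, titled TSH and DEX, 46 LINC genes were called, 18 higher and 28 lower (21.9%), against 15.0% of all genes, 8.80% higher and 6.23% lower. The median log2 fold change of the 210 genes was -0.28 against 0 for all genes tested. It was -0.10 for the 90 LINC genes that met the rule on both days. The count was 28 without replicate 1 of day 31 and 25 without either library of day 38. Library sizes without TMM factors moved the median of all genes by -0.20 and gave 15 higher and 32 lower. Between days 38 and 45, 25 were called, 12 higher and 13 lower (11.9%), against 11.2% of all genes, 4.85% higher and 6.35% lower, and 12 without either library of day 38. Between days 16 and 45, 51 were called, 17 higher and 34 lower (24.3%), against 24.6% of all genes, 12.9% higher and 11.7% lower. The median was -0.33 against 0, and -0.27 for the 81 LINC genes that met the rule on both days.

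A LINC gene that met the rule only on its high day had to differ from its low day, so the counts above are in part made by the rule. Among the genes that met it on both days compared, 10 of 89 were called between days 16 and 23 (6 higher), 3 of 102 between days 23 and 31 (1 higher), 18 of 90 between days 31 and 38 (4 higher and 14 lower), 12 of 89 between days 38 and 45 (7 higher) and 20 of 81 between days 16 and 45 (2 higher and 18 lower). These are 11.2, 2.94, 20, 13.5 and 24.7% of them. Of all genes held to the same level on both days, 14.8, 2.81, 20.9, 15.9 and 32.3% were called in the same order, so that the share of LINC genes was close to that of all genes or below it. Of all genes at that level, 7.60% were called higher and 7.19% lower between days 16 and 23, 1.87% and 0.949% between days 23 and 31, 12.3% and 8.66% between days 31 and 38, 6.54% and 9.38% between days 38 and 45, and 16.5% and 15.9% between days 16 and 45. Between days 31 and 38 and between days 16 and 45, more of these LINC genes were thus called lower than higher, unlike all genes. This difference in direction was not tested. Other noncoding genes, taken at any level, went both ways. Between days 16 and 45, 70 of 925 genes named as antisense were called lower and 23 higher. Of 24 long noncoding RNAs listed by name, 2 were called lower and 8 higher. Between days 31 and 38 the antisense genes had 16 lower and 22 higher. Of the 478 other LINC genes that passed the count filter, 3 (0.63%) were called between days 31 and 38, against 15.0% of all genes, and 8 (1.67%) between days 16 and 45, against 24.6%. Their low level follows from the rule, and the share of all genes at such low levels was not computed. These shares therefore do not set the 478 genes apart from other genes of their level. The comparisons share libraries with each other, so they are not independent.

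Position and sequence were not used to choose the genes. GENCODE 44 held 191 of the 210, of which 10 were matched by a RefSeq synonym, and RefSeq alone placed 15 of the other 19. In GENCODE 188 are of the lncRNA biotype and 3 are pseudogenes. The merged exons of a gene had a median length of 4176 bases (range 160 to 33198). In 85 genes they overlapped exons of another gene, in 70 on the opposite strand, and since the strand setting of the counting is not given in the sources used here, their counts are uncertain. LINC01089 (chr12:121795267-121803906), picked as an example after its values were seen, shares 100% of its exons with other genes. Of the 206 genes placed, 10 had over 50% of their 50-base stretches repeated in the genome, among them LINC02249, LINC00869, LINC01145 and LINC01000.

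The start of a LINC gene lay a median of 72125 bases from the nearest start of a coding gene. It lay within 10000 bases for 31 genes and over 100000 bases for 79. The r between a LINC gene and its nearest coding gene over the 10 libraries had a median of 0.19 (quartiles -0.11 and 0.57), and that between neighbouring coding genes a median of 0.145 over 14684 pairs. It was at least 0.8 for 10 LINC genes (5.24%) and for 4.18% of the coding pairs. Among the 10, besides those given above, were LINC02562 with PARM1 (0.913), LINC01500 with DACT1 (0.899, with 5.55% of the exons of LINC01500 overlapping other genes), LINC01854 with RAB6C (0.899) and LINC02246 with NRIP1, a nuclear receptor corepressor (0.893). Of the 3 genes at -0.8 or under, LINC01876 with NR4A2, a nuclear receptor of the immediate early response, had -0.832. For the 9 genes that start within 2000 bases of a coding start and run away from it, the median was 0.538. All of these r values rest on the same 10 libraries and 5 days.

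Of 16 LINC genes listed for a known context, 5 met the rule (LINC00473, LINC00261, LINC00467, LINC00662 and LINC00472). Among the other 11, LINC01356 had the highest count in a library, 20 counts on day 16, and LINC02454, a gene reported in thyroid cancer, had 0 to 19 counts. LINC01405 had 0 counts in all 10 libraries.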

How the data were processed

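RNA-seq was analysed in 10 libraries, 2 for each of 5 days, from GFP+ cells sorted by the authors. By the submitters' processing notes, the authors trimmed reads with Trimmomatic, aligned them to GRCh38.p13 with HISAT2 and counted them per gene with HTSeq. Versions and the strand setting are not given in the sources used here. The authors deposited whole-number counts for 28265 gene symbols, with no normalization, and each library was taken as a replicate of the day in its title. Replicates of a day differed by more than sampling noise (chi-square per degree of freedom 8.38 to 13.7).

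From these counts CPM was computed on summed counts, and edgeR 4.0.16 in R 4.3.3 (glmQLFit and glmQLFTest, TMM factors, 1 mean per day over all 10 libraries) was run on the 21014 genes that had 5 counts or more in 2 or more libraries. P-values were adjusted by Benjamini-Hochberg over all genes tested, at 0.05. The LINC genes and the lists were chosen with earlier results of these data known. Named genes were, by rule, the 3 largest rises and falls among called genes that did not overlap in each comparison, the 5 highest means and the 3 highest per kb, the highest gene of each single day, the 3 least variable, and those of the context list. Every gene was tested in every comparison, and the test of a single LINC gene is printed only between days on which it met the rule. Correlations used log2(CPM + 1), and a fold over a day with no more than 3 counts in each of its libraries was a lower bound. Positions came from GENCODE 44 and RefSeq, and promoters from RefSeq on GRCh38.p14. A stretch of 50 bases was called repeated if it occurred more than once on either strand of the primary assembly, for the merged exons or, with RefSeq only, for the whole span. The cell type lists held thyroid, fibroblast, cardiovascular, airway, goblet, distal lung, forebrain, pluripotency, endothelial and liver markers. Alternatives were DESeq2 1.42.0, library sizes without TMM factors, upper-quartile factors, no count filter, filterByExpr, the 4 libraries compared, a replicate block, an added minimum of 1 on the log2 fold change, leaving out each library, and other thresholds of the rule.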

Additional observations from a re-analysis of the deposited data

How the results depend on the processing

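The number of expressed LINC genes was 138 at 5 CPM in place of 210 at 3 CPM, since fewer genes reach the higher level, and 271 at 2 CPM, 254 with the mean of the 2 libraries and 214 on TMM-scaled library sizes. Leaving out each library in turn, the LINC genes called numbered 9 to 31 between days 16 and 23, 0 to 5 between days 23 and 31, 25 to 47 between days 31 and 38, 12 to 27 between days 38 and 45, 37 to 53 between days 16 and 45 and 69 to 93 over all days. The lone library of the day concerned was then assumed to vary like the others. Under the other alternatives every count stayed within 1.5 times its value. DESeq2 gave 31, 5, 49, 28 and 52 calls in the order above and 101 over all days, where it called 12.3, 2.78, 16.0, 12.2, 25.6 and 38.1% of all genes. Same-numbered libraries showed no shared deviation by correlation (r from -0.032 to 0.02 over 10 pairs of days). Such an r is taken over many genes at once, so it cannot exclude a pairing in part of them. Whether the numbers mark a pairing is therefore not settled. The fit with the replicate number as a block gave 36, 5, 46, 30 and 57 calls and 97 over all days. It called 12.9, 3.23, 16.5, 12.8, 26.0 and 39.2% of all genes, against 10.9, 2.25, 15.0, 11.2, 24.6 and 36.3% without the block. The named genes were chosen for large changes or for the days on which they met the rule, so that their direction under other settings is no sign of stability. Over their 63 called changes, 86 of 1133 recomputed values were no longer past the threshold, 68 of them with a library left out. A level of 3 CPM is at most 31 counts, and each day had 2 libraries. How far depth or the number of libraries limited the calls was not tested.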

Other observations

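Other noncoding genes moved over the same days, and some stood far above the LINC genes. H19, an imprinted gene of fetal tissue, was at 19.7 and 17.3 CPM on day 16, 150 and 168 CPM on day 23, 216 and 339 CPM on day 31, 339 and 252 CPM on day 38, and 417 and 273 CPM on day 45. H19 rose by 3.06 on the log2 scale between days 16 and 23 (edgeR adjusted p = 4.36e-13). HOTAIRM1, which lies in the HOXA cluster, went the other way, from 8.61 and 10.5 CPM on day 16 and 13.7 to 20.6 CPM on days 23 and 31 to 1 count in all over the 4 libraries of days 38 and 45. NEAT1, the RNA of nuclear paraspeckles, was the highest of the long RNAs listed on day 38, with 8474 and 11582 CPM after 4419 and 3872 CPM on day 31, a rise of 1.49 (adjusted p = 1.12e-12). KCNQ1OT1, an imprinted antisense RNA, rose by 1.02 over the same step (adjusted p = 9.02e-08), and CRNDE by 2.39 (adjusted p = 4.24e-05), with high days 16 and 38. LINC-PINT, which the naming rule did not take, stood at 61.8 and 74.8 CPM on day 31, 22.2 and 19.8 CPM on day 38 and 46.1 and 59.3 CPM on day 45, and both steps passed the test (adjusted p = 9.98e-06 and 0.000138). FOS, the nearest coding gene of LINC01220, stood at 1319 to 1722 CPM up to day 38 and at 363 and 323 CPM on day 45, while LINC01220 was at 6.89 and 4.89 CPM on day 16 and at most 0.77 CPM after it.

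Between days 31 and 38, where 15.0% of all genes were called, 12 of 24 tested long noncoding RNAs listed by name were called (8 higher, 4 lower), 4 of 27 SNHG host genes (3 higher), 7 of 44 microRNA host genes (4 higher), 38 of 925 genes named as antisense (22 higher) and 3 of 93 genes named as divergent transcripts (2 higher). Between days 16 and 45, against 24.6% of all genes, these lists had 10 (8 higher), 2 (1 higher), 11 (5 higher), 93 (23 higher) and 3 (1 higher).

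Of the marker lists not described above, the goblet list summed to 0.79 and 3.54 CPM on day 16. Its sum was 44.7 and 34.3 CPM on day 38 and 97.4 and 53.7 CPM on day 45, but its genes did not move together. MUC5B made most of the day 45 sum, at 91.8 and 45.2 CPM. MUC5AC was highest on day 38, at 26.6 and 20.6 CPM, and stood at 0.41 and 1.98 CPM on day 45. The sum of the cardiovascular list was 7.28 and 3.66 CPM on day 16 and 75.5 and 61.2 CPM on day 45. The airway list was at 16.0 and 10.5 CPM on day 16, mostly TP63, at 2.09 and 4.57 CPM on day 23, and at 42.1 and 36.9 CPM on day 45, mostly KRT5. The forebrain list stayed at 0.12 to 7.35 CPM and the endothelial list at 0 to 5.15 CPM in all libraries. These sums were not tested.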
